A study of Danio rerio with 12 samples.

Results

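The type I collagen genes of the adult zebrafish heart were followed here in 4 groups of arrays. Every probe set whose annotation gives the single symbol col1a1a or col1a2 was taken, which gave 4 of the 15502 probe sets tested and 2 of the 8793 genes with a probe set of their own. Both genes had 2 probe sets, called set 1 (the brighter over the 12 arrays) and set 2. The probe sets were picked by annotation and not by their values, though the genes themselves were chosen with earlier results of these data known. The other α1 gene, col1a1b, had a single probe set that is annotated to a second gene as well, so it is not described. Both col1a1a probe sets carry the Affymetrix suffix for probes shared between transcripts, and any signal from col1a1b in them was not tested.

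Total RNA of adult hearts was hybridised to 12 Affymetrix arrays. There were 4 groups with 3 arrays each. Wild-type (WT) fish of the AB strain were sampled unamputated and 7 days after amputation. Fish of a transgenic line, here called dnHIF1a, carried cmlc2a:Ert2-Cre-Ert2 together with the reporter cmlc2a:LnL:GFP, and besides them cmlc2a:LrL:dnHIF1a, and were sampled unamputated and at the same 7 days. The study asks, by its title, about hypoxia and the regrowth of heart muscle. dnHIF1a stands for a dominant-negative form of Hif1a, the transcription factor that accumulates when oxygen is low. Its transgene is under the cmlc2a promoter, which is active in heart muscle cells and not in the fibroblasts and epicardial cells that make most collagen. The Cre in this line is of a form that acts after tamoxifen, and neither a tamoxifen dose nor the strain of the transgenic fish is given in the labels used here. Cre, the reporter and the dominant-negative protein are carried by 1 line and not the other, so their parts cannot be told apart. The labels do not say whether a sample is 1 heart or a pool, and p-values measure the spread between these arrays only.

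Type I collagen is the main fibre of connective tissue. Its α1 and α2 chains are folded and hydroxylated in the endoplasmic reticulum into a triple helix, exported as procollagen, trimmed of their end peptides and cross-linked outside the cell. Zebrafish replace lost ventricle with new muscle. Fibroblasts and cells of the epicardium, the outer layer of the heart, lay down matrix at the wound. Prolyl hydroxylases and lysyl oxidases that modify collagen are targets of HIF in mammals.

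The arrays were alike in overall level, but they share 1 normalization by RMA, so this likeness is no check of their quality. On the log2 scale their medians ranged from 5.54 to 5.58, their highest values between 14.86 and 15.04, and the collagen values between 7.19 and 11.70. Correlations over all probe sets were 0.992 to 0.996 within groups and 0.976 to 0.990 between groups. The 11 measured cardiomyocyte markers averaged 12.46 to 12.81 on every array. Such values go with the heart label and do not exclude other tissue in the samples.

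col1a1a was at its lowest in unamputated WT hearts. Set 1 read 9.38, 8.95 and 8.97 there on arrays 1 to 3, and 11.52, 11.33 and 11.70 after amputation. In dnHIF1a hearts it read 10.12, 10.14 and 9.94 unamputated and 11.17, 11.24 and 11.23 after amputation. The 4 groups did not overlap on any array, and dnHIF1a hearts sat inside the WT range at both ends, higher before injury and lower after it. Set 2 of col1a1a, a dimmer reading of the gene, gave 7.68, 7.77 and 7.28 in unamputated WT hearts and 10.14, 10.07 and 10.63 after amputation. In dnHIF1a hearts its values were 8.13, 8.17 and 7.96, and then 9.82, 9.67 and 9.71. The order of the groups was that of set 1, again with no overlap.

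col1a2, which encodes the α2 chain, followed the same order. Set 1 read 8.42, 8.27 and 7.83 in unamputated WT hearts and 10.90, 10.90 and 11.19 after amputation. In dnHIF1a hearts it read 9.16, 9.38 and 9.01, and then 10.62, 10.60 and 10.71. Every amputated heart lay above every unamputated one. Set 2 of col1a2 read 7.75, 7.53 and 7.19 in unamputated WT hearts and 10.83, 10.68 and 11.24 after amputation. Its dnHIF1a values were 8.42, 8.50 and 8.32, and then 10.00, 10.29 and 10.33. Here too no neighbouring groups overlapped.

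All 4 probe sets thus had group means in 1 order, from unamputated WT through unamputated dnHIF1a and amputated dnHIF1a to amputated WT. Of all probe sets, 5.37% had their means in that order. For 12.4% of all probe sets every unamputated dnHIF1a array lay above every unamputated WT array. For the other pairs of groups this share is not given, so the lack of overlap there is a description only. Between the nearest arrays of neighbouring groups lay 0.19 to 0.59 from unamputated WT to unamputated dnHIF1a, at least 1.03 from there to amputated dnHIF1a, and 0.09 to 0.35 from there to amputated WT. The plot of every array shows these values. Across the 12 arrays the probe sets correlated with each other at 0.970 to 0.994. Once group means were subtracted, the correlations were 0.578 to 0.850 over the same 12 arrays, which all share 1 normalization.

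**Figure D1:**
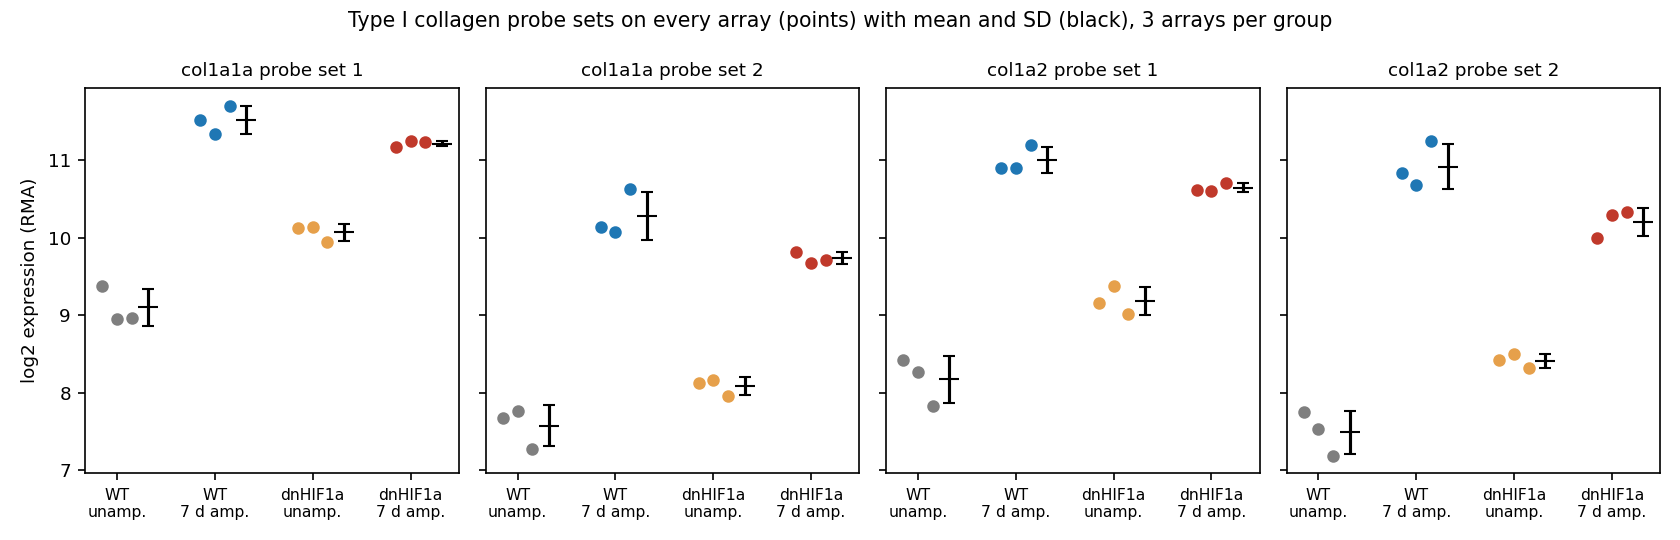
Log2 expression after RMA (y axis) of the 4 type I collagen probe sets (panels) on each array (points, 3 per group), with the group mean and SD in black. In every panel unamputated WT hearts are lowest and amputated WT hearts highest, with both dnHIF1a groups between them and no overlap of neighbouring groups.

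Within WT hearts, amputation raised type I collagen RNA by 5.34 to 10.8 times. The mean of col1a1a set 1 went from 9.10 ± 0.24 to 11.52 ± 0.19 (SD, n = 3 arrays each), a difference of 2.42 ± 0.12 (SE; limma, Benjamini-Hochberg adjusted p = 9.89e-08). That of col1a1a set 2 went from 7.58 ± 0.26 to 10.28 ± 0.31, a difference of 2.70 ± 0.15 (limma, adjusted p = 1.79e-07). The α2 gene gave 2.82 ± 0.14 for col1a2 set 1, from 8.17 ± 0.31 to 11.00 ± 0.17 (limma, adjusted p = 9.89e-08). The widest difference was that of col1a2 set 2, at 3.43 ± 0.16, from 7.49 ± 0.28 to 10.92 ± 0.29 (limma, adjusted p = 4.39e-08). All 4 rose, while 11% of all probe sets were called higher in this comparison, and by size of rise they ranked 11, 15, 19 and 32 among the 15502. All 4 calls held with any 1 array left out. Of 16 measured markers of red blood cells 11 were also called higher after amputation in WT hearts and 2 lower, against 11.7% and 14.5% of all genes. In dnHIF1a hearts none of the 16 was called higher and 1 lower, against 5.83% and 5.13% of all genes. With the mean of these markers as a covariate the 4 collagen differences in WT were 2.24 to 3.08 and still called. That mean did not overlap between unamputated and amputated WT hearts, so the fit cannot separate the WT response from the marker level. Macrophage and pan-leukocyte markers were higher after amputation as well, 10 of 15 measured in WT (median 0.61) and 12 of 15 in dnHIF1a hearts (median 0.99), and their part in the collagen rise was not tested. In bulk hearts more cells of a type and more RNA per cell cannot be told apart.

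The same injury raised type I collagen in dnHIF1a hearts by 2.21 to 3.47 times. col1a1a set 1 rose from 10.07 ± 0.11 to 11.21 ± 0.038, by 1.15 ± 0.12 (limma, adjusted p = 9.95e-05), and set 2 from 8.09 ± 0.11 to 9.73 ± 0.078, by 1.65 ± 0.15 (limma, adjusted p = 3.72e-05). col1a2 set 1 rose from 9.18 ± 0.19 to 10.64 ± 0.059, by 1.46 ± 0.14 (limma, adjusted p = 5.97e-05), and set 2 from 8.41 ± 0.090 to 10.21 ± 0.18, by 1.79 ± 0.16 (limma, adjusted p = 2.88e-05). Here 5.66% of all probe sets were called higher, and the members ranked 23, 31, 48 and 108 by size of rise. Against a change of 1.5-fold (limma's treat) col1a1a set 1 did not pass (adjusted p = 0.0536). On the log2 scale the dnHIF1a rise was 47.4% to 60.9% of the WT rise.

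The difference between those rises was tested directly as the dnHIF1a response minus the WT response. It was -1.27 ± 0.17 for col1a1a set 1 (95% interval -1.64 to -0.90; limma, adjusted p = 0.00433) and -1.06 ± 0.21 for col1a1a set 2 (-1.51 to -0.60; limma, adjusted p = 0.0235). It was -1.36 ± 0.20 for col1a2 set 1 (-1.80 to -0.93; limma, adjusted p = 0.00779) and -1.63 ± 0.22 for col1a2 set 2 (-2.12 to -1.15; limma, adjusted p = 0.00483). All 4 were called lower, against 1.35% of all probe sets. The call of col1a1a set 2 did not survive leaving out array 1 (adjusted p = 0.0592) or 2 (0.0636) of unamputated dnHIF1a hearts, or array 1 (0.0514) or 2 (0.0673) of amputated ones. Tested against a change of 1.5-fold instead of 0 (limma's treat), none of the 4 passed (adjusted p 0.288 to 1). The mean of the 16 measured red blood cell markers moved alongside, though not every marker did. Their median difference of the responses was -1.21, with 1 called higher and none lower, against 0.989% and 1.6% of all genes. By limma 11 of the 16 had an unadjusted p under 0.05, counted over both directions. The mean by array was 7.78 to 8.25 in unamputated and 8.63 to 9.46 in amputated WT hearts, and 8.09 to 8.72 and 8.13 to 9.00 in the 2 dnHIF1a groups. With that mean as a covariate in limma the 4 differences were -1.12 (adjusted p = 0.0644), -0.77 (0.223), -1.08 (0.0913) and -1.33 (0.0702) in the order above, and none passed the threshold. The marker mean did not overlap between unamputated and amputated WT hearts. This fit therefore cannot separate the WT response, and with it the difference, from the marker level. Over all probe sets it left 24 called for the difference, against 347 without the covariate. The part of red blood cells in the result was not tested.

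The lines already differed before injury, in the opposite direction to their difference after it. Unamputated dnHIF1a hearts held 1.42 to 2.01 times the type I collagen RNA of unamputated WT hearts. The difference was 0.97 ± 0.12 for col1a1a set 1 (limma, adjusted p = 0.000236), 1.01 ± 0.14 for col1a2 set 1 (adjusted p = 0.000609) and 0.92 ± 0.16 for col1a2 set 2 (adjusted p = 0.00232). For col1a1a set 2 it was smaller, at 0.51 ± 0.15 (limma, adjusted p = 0.0449), and this call was lost without any 1 of 9 arrays, with adjusted p up to 0.142. Of those arrays 2 were WT unamputated (1 and 3), 1 was WT amputated (1) and the others were all 6 dnHIF1a arrays. All 4 probe sets were called higher, against 5.82% of all probe sets, and the groups did not overlap for any of them, against 12.4% of all probe sets. With the red blood cell covariate the calls of col1a1a set 1 (0.91), col1a2 set 1 (0.91) and col1a2 set 2 (0.81) held, and that of col1a1a set 2 did not (0.40, adjusted p = 0.116). Against a change of 1.5-fold (limma's treat) none of the 4 passed (adjusted p 0.282 to 1).

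After amputation the lines stood closer together for col1a1a set 1 and both sets of col1a2, but not for col1a1a set 2. dnHIF1a hearts differed from WT hearts by -0.30 ± 0.12 for col1a1a set 1 (95% interval -0.56 to -0.042; limma, adjusted p = 0.124) and by -0.35 ± 0.14 for col1a2 set 1 (-0.66 to -0.045; limma, adjusted p = 0.130), neither of which passed. col1a1a set 2 stood lower in dnHIF1a than in WT hearts by 0.55 ± 0.15 (limma, adjusted p = 0.0307) and col1a2 set 2 by 0.71 ± 0.16 (limma, adjusted p = 0.0113). So 2 of 4 were called lower, against 6.75% of all probe sets. Neither call held on every set of arrays. That of col1a1a set 2 was lost without WT amputated array 3 (adjusted p = 0.103) or dnHIF1a amputated array 1 (0.0604), 2 (0.101) or 3 (0.0754), and that of col1a2 set 2 without dnHIF1a amputated array 1 (0.0543). col1a1a set 1 passed only without WT unamputated array 1 (0.0476). The calls of both second sets were also lost with the red blood cell covariate (-0.37, adjusted p = 0.243, and -0.52, adjusted p = 0.114).

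By arithmetic, the difference of the responses is the amputated gap between the lines minus the unamputated gap. The unamputated gap made up 76.1% of it for col1a1a set 1, 74.1% for col1a2 set 1, 56.5% for col1a2 set 2 and 48.3% for col1a1a set 2. The share was larger for the brighter probe set of each gene. All 5 comparisons draw on the same 12 arrays and are not independent of each other.

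**Figure D2:**
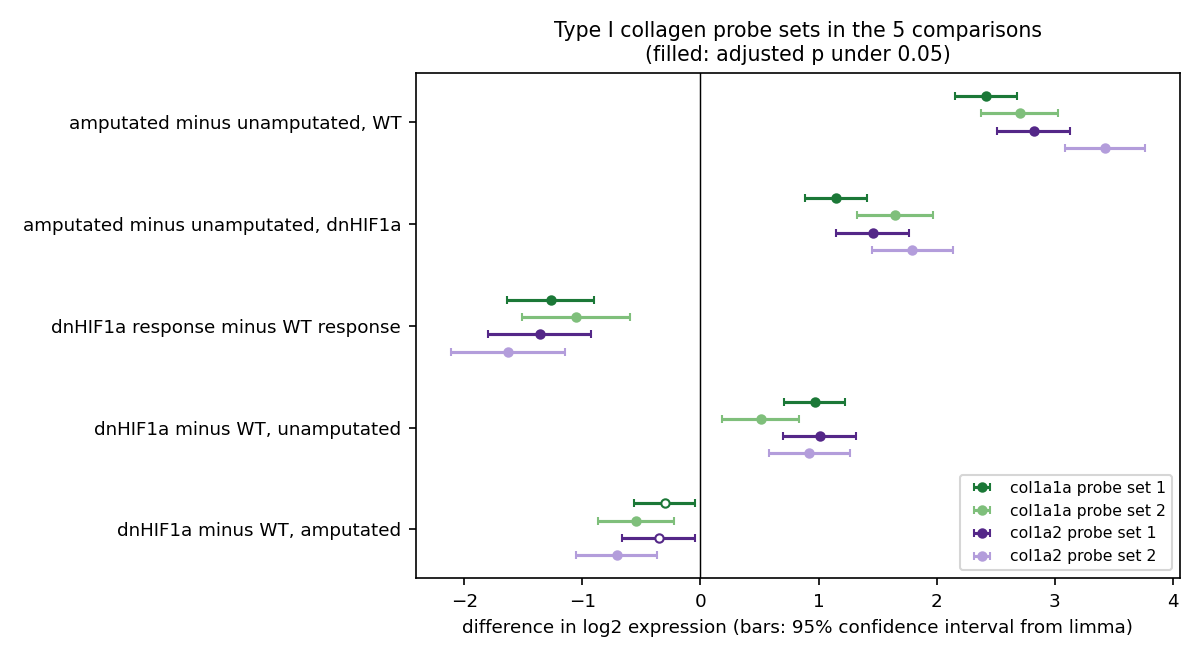
Differences in log2 expression (x axis) of the 4 type I collagen probe sets in 5 comparisons (y axis), with 95% confidence intervals from limma (n = 3 arrays per group); filled points have an adjusted p under 0.05. The probe sets rise in both lines, respond less in dnHIF1a, stand higher in unamputated dnHIF1a hearts, and in amputated hearts 2 of 4 fall short of the threshold.

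The other genes of the collagen pathway are given by their role, each gene by its brightest probe set. In WT hearts 11.7% of all genes were called higher and 14.5% lower after amputation, with a median difference of -0.06. In dnHIF1a hearts these shares were 5.83% and 5.13%, and for the difference of the responses 0.989% were higher and 1.6% lower. When the red blood cell marker mean entered the limma fit, the WT calls given below were lost for serpinh1b (adjusted p = 0.391), fkbp10b (0.0834), ppib (0.0773), loxa (0.0819), tgfb1a (0.109) and tgfbr2b (0.116). Over all probe sets that fit left 660 called for the WT response, against 3532 without the covariate.

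Among the other fibrillar collagen chains, 4 of 15 were measured, and 2 rose in WT hearts. col5a2a, a chain of the type V collagen found inside type I fibrils, rose by 2.14 ± 0.09 in WT (limma, adjusted p = 4.39e-08) and by 1.12 ± 0.09 in dnHIF1a hearts (limma, adjusted p = 1.55e-05). Its difference of the responses was -1.02 ± 0.13 (limma, adjusted p = 0.00342), and in unamputated hearts it stood 0.45 ± 0.09 higher in dnHIF1a (limma, adjusted p = 0.00579). Its pattern over the groups was that of col1a1a and col1a2. A second, dim probe set of col5a2a (3.51 to 4.46) read 0.51 in WT and 0.52 in dnHIF1a hearts, so the probe sets disagreed on the difference between the lines. col11a1a, a type XI chain, rose by 1.03 ± 0.16 in WT (limma, adjusted p = 0.000641) and read 0.12 ± 0.16 in dnHIF1a hearts (adjusted p = 0.726), while the difference itself did not pass (adjusted p = 0.0535).

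Folding and hydroxylation of the chains take place in the endoplasmic reticulum. Of 22 genes of these steps 9 were measured, with 3 higher and 1 lower in WT and 4 higher in dnHIF1a hearts. serpinh1b, which encodes the collagen chaperone Hsp47, rose by 1.08 ± 0.23 in WT (limma, adjusted p = 0.00582) and by 1.22 ± 0.23 in dnHIF1a hearts (limma, adjusted p = 0.00577). Its difference of the responses was 0.15 ± 0.33 and did not pass (adjusted p = 0.862). fkbp10b, for a prolyl isomerase of collagen folding, rose by 0.90 ± 0.13 in WT (limma, adjusted p = 0.000443) and read 0.11 ± 0.13 in dnHIF1a hearts. Its difference of -0.78 ± 0.18 (limma, adjusted p = 0.0447) was lost without any 1 of 10 arrays, that is all but WT amputated array 2 and WT unamputated array 3 (adjusted p up to 0.111). ppib, for cyclophilin B, rose by 0.57 ± 0.093 in WT (limma, adjusted p = 0.00114).

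The prolyl 4-hydroxylase subunits ran against the collagen chains in uninjured hearts. The difference of unamputated dnHIF1a from unamputated WT hearts was -1.10 ± 0.18 for p4ha1b, at 7.38 ± 0.28 against 8.48 ± 0.31 (SD, n = 3 arrays each; limma, adjusted p = 0.00163). p4ha2 was 0.88 ± 0.08 lower, at 7.35 ± 0.11 against 8.22 ± 0.074 (limma, adjusted p = 2.04e-05). These enzymes hydroxylate the prolines that stabilise the triple helix, and neither call was lost with any 1 array left out. In WT hearts amputation moved p4ha1b by 0.44 ± 0.18 (adjusted p = 0.0961) and p4ha2 by -0.14 ± 0.08 (adjusted p = 0.242), neither of which passed. In dnHIF1a hearts the values were 0.81 ± 0.18 for p4ha1b (limma, adjusted p = 0.0138) and 0.32 ± 0.08 for p4ha2 (limma, adjusted p = 0.0265). The first of these calls was lost when amputated array 2 (0.0572) or unamputated array 2 (0.0580) of dnHIF1a was left out, and the second without dnHIF1a amputated array 1 (0.0823) or 3 (0.0899) or dnHIF1a unamputated array 1 (0.0646) or 2 (0.108). After amputation p4ha2 stood 0.42 ± 0.08 lower in dnHIF1a (limma, adjusted p = 0.00475). The 5 measured of 10 collagen enzymes that are HIF targets in mammals, these 2 among them, had a median genotype difference of -0.25 in unamputated hearts, with 2 called lower and none higher, against 6.24% and 6.3% of all genes. After amputation 2 of these 5 rose in WT (median 0.44) and all 5 in dnHIF1a hearts (median 0.67), and none was called for the difference of the responses by limma, with an unadjusted p under 0.05 for 3. Between amputated hearts 4 of the 5 were called lower in dnHIF1a and none higher (median -0.61), against 7.43% and 6.77% of all genes. Of these calls that of p4ha2 held with any 1 array left out. That of p4ha1b was lost without any 1 of 4 arrays (limma, adjusted p up to 0.0669). The calls of the lysyl oxidase family genes loxa and loxl2b were each lost without any 1 of 3 arrays (up to 0.114 and 0.0909). Both were also lost with the red blood cell covariate (0.255 and 0.156).

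Of the genes of procollagen export 11 of 14 were measured, and 1 rose and 1 fell in WT hearts. creb3l2, for a transcription factor of secretory load, rose by 0.66 ± 0.087 in WT (limma, adjusted p = 0.000248) and by 0.57 ± 0.087 in dnHIF1a hearts (limma, adjusted p = 0.00133). None of the 11 was called for the difference of the responses by limma, and 1 had an unadjusted p under 0.05.

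Outside the cell, 4 of 6 measured genes of propeptide cleavage and cross-linking rose in WT hearts (median 1.46) and 4 in dnHIF1a hearts (median 0.72). pcolce2b, for an enhancer of the proteinase that trims the C-terminal propeptide, rose by 2.54 ± 0.16 in WT (limma, adjusted p = 5.33e-07) and by 1.93 ± 0.16 in dnHIF1a hearts (limma, adjusted p = 1.76e-05). The lysyl oxidase family gene loxl2b rose by 1.44 ± 0.15 in WT (limma, adjusted p = 4.98e-05), from 6.23 ± 0.12 to 7.67 ± 0.36 (SD, n = 3 arrays each). In dnHIF1a hearts loxl2b read 0.67 ± 0.15 (limma, adjusted p = 0.0163), a call lost without dnHIF1a amputated array 2 (0.0617) or 3 (0.0635) or dnHIF1a unamputated array 2 (0.0569) or 3 (0.0595). loxa, a dim gene at 3.32 to 5.91, rose by 1.63 ± 0.22 in WT (limma, adjusted p = 0.000334). Of the 6 genes none was called for the difference of the responses, by limma at adjusted p under 0.05, with values from -0.78 to 0.20 and an unadjusted p under 0.05 for 3.

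**Figure D3:**
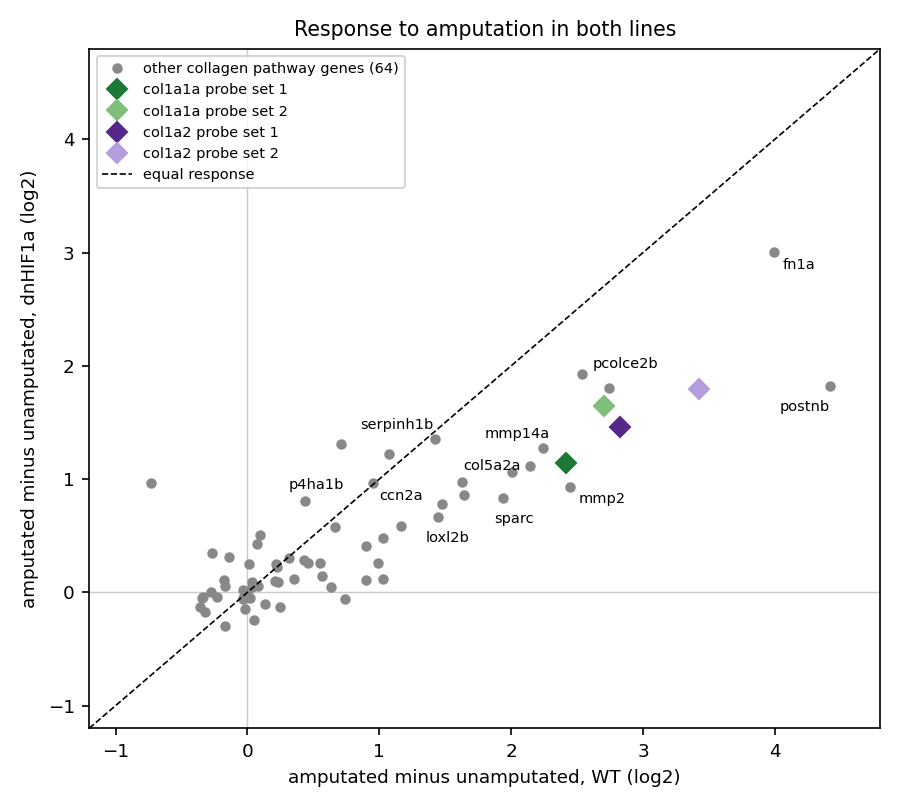
Response to amputation in WT hearts (x axis) against that in dnHIF1a hearts (y axis), both as log2 differences, for the 4 type I collagen probe sets (diamonds) and 64 other collagen pathway genes (circles); each axis is a difference of means of 3 arrays, and the dashed line marks equal responses. The type I collagen probe sets, postnb, mmp2 and sparc lie below the line, and serpinh1b and ccn2a lie near it.

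Of the proteins that sit on or beside collagen fibrils, 14 of 32 were measured. 10 rose in WT hearts (median 0.77) and 7 in dnHIF1a hearts (median 0.36), while 3 were called lower for the difference of the responses. postnb, for periostin, a matrix protein of healing wounds, had a difference of the responses of -2.60 ± 0.33 (limma, adjusted p = 0.00342). Its level was 7.00 ± 0.51 in unamputated WT and 8.91 ± 0.33 in unamputated dnHIF1a hearts (SD, n = 3 arrays each), 1.91 ± 0.23 higher (limma, adjusted p = 0.000191). sparc, for a collagen-binding protein, rose by 1.94 ± 0.13 in WT (limma, adjusted p = 7.91e-07) and by 0.84 ± 0.13 in dnHIF1a hearts (limma, adjusted p = 0.00131). Its difference of the responses was -1.10 ± 0.18 (limma, adjusted p = 0.0114), and it stood 0.59 ± 0.13 higher in unamputated dnHIF1a hearts (limma, adjusted p = 0.00893). Both genes thus had the group order of type I collagen. The brightest probe set of fn1a, for fibronectin, read 5.71 ± 0.38 in unamputated WT and 5.84 ± 0.26 in unamputated dnHIF1a hearts, a difference of 0.13 that did not pass (adjusted p = 0.816). Its rise by 3.01 ± 0.26 in dnHIF1a hearts (limma, adjusted p = 2.2e-05) was not distinguished from the 3.99 ± 0.26 of WT (difference -0.99 ± 0.36; adjusted p = 0.179). Amputated dnHIF1a hearts differed from amputated WT hearts by -0.86 ± 0.26 (limma, adjusted p = 0.0451). That call was lost without any 1 of 6 arrays (adjusted p up to 0.163). The other probe sets of fn1a disagreed with the brightest one in size or direction. In WT hearts 1 read -0.21 (limma, adjusted p = 0.0457) and 1 read 0.32 (limma, adjusted p = 0.00874).

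Most measured genes of collagen breakdown and its inhibitors rose after amputation. Of 17 such genes 9 were measured, and 7 rose in WT and 6 in dnHIF1a hearts. Their values ranged from -0.73 to 2.45 in WT hearts. For the difference of the responses they ranged from -1.51 to 1.70, with 3 called lower and none higher. Between amputated hearts 6 were called lower in dnHIF1a and 1 higher (median -0.62), against 7.43% and 6.77% of all genes. mmp2, for gelatinase A, rose by 2.45 ± 0.11 in WT (limma, adjusted p = 4.39e-08) and by 0.93 ± 0.11 in dnHIF1a hearts (limma, adjusted p = 0.000213). The difference of the responses of mmp2 was -1.51 ± 0.15 (limma, adjusted p = 0.00101), and it was 0.86 ± 0.11 higher in unamputated dnHIF1a hearts (limma, adjusted p = 0.000279). Both genes of Mmp14, the membrane collagenase that activates the mmp2 product, rose as well. mmp14a rose by 2.24 ± 0.092 in WT (limma, adjusted p = 4.39e-08) with a difference of the responses of -0.97 ± 0.13 (limma, adjusted p = 0.00433), and mmp14b by 2.01 ± 0.11 (limma, adjusted p = 1.11e-07) with one of -0.94 ± 0.15 (limma, adjusted p = 0.00985). In unamputated dnHIF1a hearts mmp14a was 0.45 ± 0.092 higher (limma, adjusted p = 0.00685), while its dimmer probe set read 0.24 and did not pass (adjusted p = 0.0721). For mmp14b the value there was 0.32 ± 0.11 (adjusted p = 0.0685). The list was split in that comparison, with 3 of the 9 genes called higher and 3 lower (median 0.29), against 6.3% and 6.24% of all genes. The third gene called higher was mmp11b, for stromelysin 3, by 0.60 (limma, adjusted p = 0.0121), lost without dnHIF1a unamputated array 2 (0.0503). The 3 called lower were mmp13a, for a collagenase, at -1.98 (limma, adjusted p = 0.00760), mmp9, for gelatinase B, at -1.28 (adjusted p = 0.0356) and timp2b, for an inhibitor of these enzymes, at -0.87 (adjusted p = 0.0425). These 4 genes were named after their values were seen. The call of mmp13a held with any 1 array left out but not with only the groups compared (adjusted p = 0.0567). That of mmp9 was lost without any 1 of 6 arrays (both groups' unamputated arrays but WT 2, and dnHIF1a amputated array 1; adjusted p up to 0.113) and with the red blood cell covariate (0.0767). That of timp2b was lost without any 1 of 9 arrays, all but WT unamputated array 2 and WT amputated arrays 2 and 3 (adjusted p up to 0.127). With the red blood cell covariate the difference of the responses held for mmp2 (-1.35, adjusted p = 0.0197) and did not for mmp14a (-0.77, 0.0618), mmp14b (-0.77, 0.112), sparc (-0.87, 0.121), postnb (-2.19, 0.0541) or col5a2a (-0.91, 0.0541). None of the 17 listed collagen receptors had a probe set of its own.

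Of the TGF-beta pathway, which drives collagen genes in fibroblasts, 11 of 24 genes were measured, with 3 higher and 1 lower in WT hearts and 1 higher in dnHIF1a hearts. The ligand gene tgfb1a rose by 0.55 ± 0.09 in WT (limma, adjusted p = 0.00105) at low levels, 4.24 to 5.08. The receptor gene tgfbr2b rose by 0.74 ± 0.17 in WT (limma, adjusted p = 0.00888) and read -0.057 ± 0.17 in dnHIF1a hearts (adjusted p = 0.894). Its difference of the responses of -0.79 ± 0.24 did not pass (adjusted p = 0.112) except without WT unamputated array 3 (0.00166). ccn2a, a target of the pathway, rose by 0.95 ± 0.15 in WT (limma, adjusted p = 0.000919) and by 0.97 ± 0.15 in dnHIF1a hearts (limma, adjusted p = 0.00167), with a difference of 0.017 ± 0.21 (adjusted p = 0.980). smad3b, for a mediator of the signal, was 0.79 ± 0.082 lower in unamputated dnHIF1a than WT hearts (limma, adjusted p = 6.08e-05). The ligand gene went the other way, with tgfb1a 0.36 ± 0.090 higher (limma, adjusted p = 0.0196), a call lost without WT unamputated array 3 or dnHIF1a unamputated array 1 or 2 (adjusted p up to 0.0667) and with the red blood cell covariate (0.0538). They were the only 2 of the 11 called in that comparison. None of the 11 was called for the difference of the responses (limma, adjusted p under 0.05), and 4 had an unadjusted p under 0.05.

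**Figure D4:**
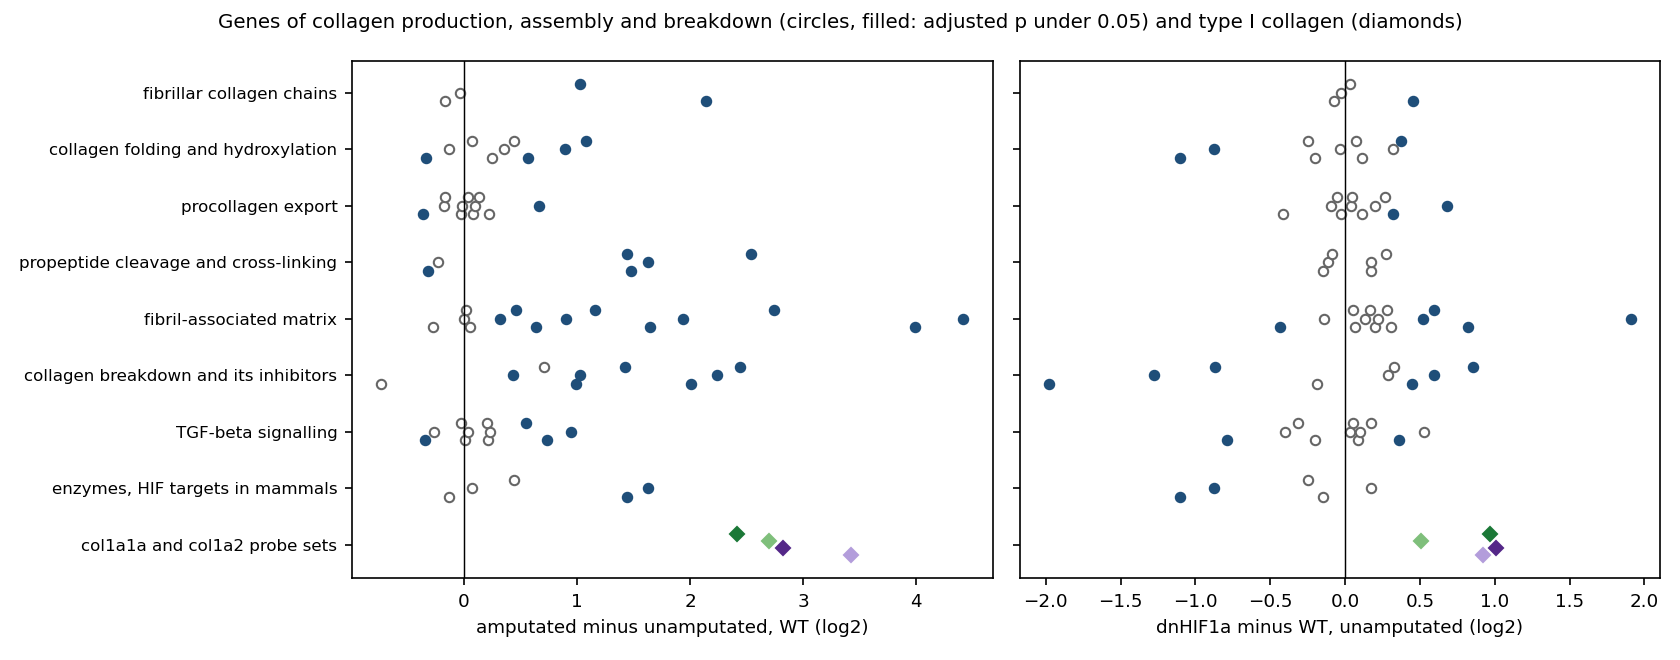
Log2 differences of collagen pathway genes by role (rows, 1 circle per gene, filled where the limma adjusted p is under 0.05) and of the 4 type I collagen probe sets (diamonds), for WT amputated minus unamputated (left) and for unamputated dnHIF1a minus WT (right). In the right panel the type I collagen probe sets lie to the right of 0, and p4ha1b and p4ha2, filled in 2 rows since they are in both lists, lie to the left.

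Markers of the cells that could make collagen were followed in the same way. The 15 measured of 24 epicardium and fibroblast markers averaged 6.70 to 6.87 by array in unamputated WT hearts, 7.71 to 7.90 after amputation, and 7.00 to 7.10 and 7.60 to 7.71 in the dnHIF1a groups, the order of the collagen genes. That order is not particular to this list. The group means of the red blood cell markers and of the skin and epithelium markers had it too. Of the 15 epicardium and fibroblast markers 7 rose in each line, against 11.7% of all genes in WT and 5.83% in dnHIF1a hearts. Between unamputated lines 3 were called higher in dnHIF1a and none lower (median 0.037), against 6.3% and 6.24% of all genes. Between amputated lines 2 were called lower and none higher (median -0.02), against 7.43% and 6.77%. 2 of the 15, postnb and dcn, also stand in the lists of matrix genes, and the other 13 averaged 6.47 to 6.65, 7.21 to 7.37, 6.63 to 6.77 and 7.16 to 7.25 in the same sequence. Without those 2 genes the lines overlapped both before and after amputation. vim, for the filament protein vimentin, was 1.04 ± 0.1 higher in unamputated dnHIF1a hearts (limma, adjusted p = 3.26e-05), and mdka, for midkine, rose by 3.56 ± 0.21 in WT (limma, adjusted p = 3.1e-07) and 2.43 ± 0.21 in dnHIF1a hearts (limma, adjusted p = 2.46e-05). Over 12 arrays the epicardium and fibroblast mean correlated with col1a2 at 0.988, as a description of arrays that share the group differences. With this mean as a covariate in limma, an alternative added after the values were seen, no type I collagen probe set passed in either response (adjusted p 0.202 to 0.623). The differences were still 1.44 to 2.06 in WT and 0.49 to 1.21 in dnHIF1a hearts. Of all probe sets only 2 and 6 were called for these responses in that fit. The mean does not overlap between unamputated and amputated hearts, so the fit cannot separate the response from the marker level. In unamputated hearts, with the same covariate, dnHIF1a stood higher by 0.77 for col1a1a set 1 (limma, adjusted p = 0.00561), 0.86 for col1a2 set 1 (0.0142) and 0.64 for col1a2 set 2 (0.0432), and col1a1a set 2 did not pass (0.38, 0.303). The marker mean did not overlap between the unamputated lines either, so this fit cannot separate the line from the marker level.

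Markers of other tissues were also set beside the collagen values of unamputated hearts, where 6.3% of all genes were called higher and 6.24% lower. The 5 smooth muscle and bulbus markers averaged 6.77 to 7.00 in unamputated WT and 7.48 to 7.89 in unamputated dnHIF1a hearts, 3 of them called higher, among them tagln by 1.19 ± 0.22 (limma, adjusted p = 0.00409). After amputation they averaged 7.55 to 7.81 in WT and 8.06 to 8.22 in dnHIF1a hearts. This list thus did not have the group order of the collagen genes. The bulbus arteriosus is the outflow of the fish heart. The 20 skin and epithelium markers averaged 5.46 to 5.54 in unamputated WT and 5.67 to 5.73 in unamputated dnHIF1a hearts. Of these 4 were called higher, among them krt15, a keratin gene, by 1.07 ± 0.12 (limma, adjusted p = 9.82e-05). The other 16 were not called, and the median difference of the list was 0.0067. The 15 bone, scale and cartilage markers averaged 5.20 to 5.28 in unamputated WT and 5.18 to 5.22 in unamputated dnHIF1a hearts, ranges that overlap, and none was called between them by limma or had an unadjusted p under 0.05 (0 of 15). The 15 macrophage and pan-leukocyte markers ran the other way, at 8.23 to 8.41 and 7.14 to 7.45, with 12 called lower. The part of these tissues in the collagen values was not tested.

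**Figure D5:**
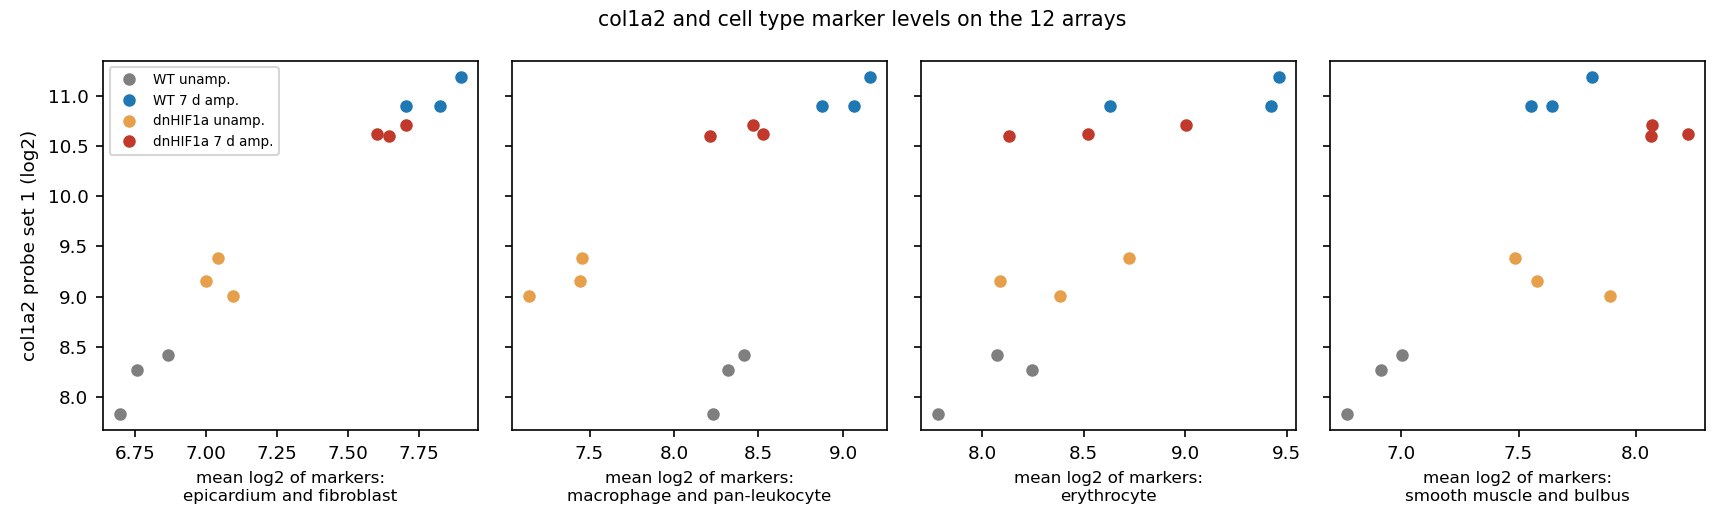
Level of col1a2 set 1 (y axis, log2) against the mean log2 level of 4 marker lists (x axes, 1 panel each), with 1 point per array and colours for the 4 groups. The epicardium and fibroblast mean has the groups in the order of col1a2, and so do the group means of the erythrocyte markers, though their arrays overlap between groups. Macrophage markers are lowest in unamputated dnHIF1a hearts, and smooth muscle and bulbus markers are highest in amputated dnHIF1a hearts.

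The genes most like type I collagen were sought among 5053 genes at or above the median level, by Pearson's r over the 12 arrays. For col1a1a the nearest was col1a2 (0.994), then tfa (0.991), anxa1a (0.988), fn1b (0.988), postnb (0.986) and mmp2 (0.983). For col1a2 they were col1a1a (0.994), postnb (0.992), anxa1a (0.989), tfa (0.988), cpn1 (0.984) and fn1b (0.983). tfa encodes transferrin, anxa1a an annexin, fn1b a second fibronectin and cpn1 a carboxypeptidase of plasma. All of them share the 4 group means with the collagen genes, so r here mostly describes the groups. After group means were subtracted, the nearest genes to col1a1a were elmod2 (0.955), larp1b (0.955), aebp1b (0.945), txnb (0.944), fn1b (0.939) and gabpb2a (0.932), and those to col1a2 were hnrnpr (0.958), abracl (0.942), eif4a1a (0.935), arid2 (0.915), tktb (0.908) and derl2 (0.903). No gene stood on both of these latter lists.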

How the data were processed

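Expression was measured in adult zebrafish hearts on 12 Affymetrix arrays, 3 per group; per the labels' protocols RNA was extracted with Trizol and 200 ng of it amplified and labelled. RMA and limma are named in the submitters' processing notes; their versions and the genome build are not given in the sources used here. The deposited values are on a log2 scale, and they were used as the authors deposited them, with the medians of the 12 arrays within 5.54 to 5.58. The number of arrays limits the precision.

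The table holds 15617 probe sets, of which 115 are controls and the remaining 15502 entered the fit. Platform annotation gives 1 gene to 10795 of them, several to 135 and none to 4572; 10711 of the 10795 were matched by Entrez ID to the RefSeq table and 1 symbol was updated. Among 1539 genes with more than 1 probe set, the one of highest average level represents the gene. One limma 3.58.1 fit in R 4.3.3 took all 12 arrays, each group with its own mean (lmFit and eBayes, 8 residual and 4.46 prior degrees of freedom), and 5 two-sided comparisons were drawn from it. P-values were adjusted by Benjamini-Hochberg over the 15502 probe sets and called under 0.05. The code was tested on simulated data.

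The members and gene lists were chosen with earlier results of these data known. Named genes are, from each list, up to 3 per direction with the smallest p among those called in the WT response or in the difference of the responses, some fixed pathway genes, and up to 3 per marker list. Sample numbers did not pair arrays across groups: the correlation of same-numbered arrays' deviations was -0.191 to 0.133. The highest share of identical values in 2 arrays was 2.87%, so none was a copy. Alternatives were array weights, a trended and robust prior, median centring, repeated quantile normalization, filters on dim or flat probe sets, limma's treat at 1.5-fold, only the groups compared, a replicate block, the mean over a gene's probe sets, marker means as covariates, and each array left out.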

Additional observations from a re-analysis of the deposited data

Results flagged for a closer look

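The response to amputation differed between the lines, by the interaction term of limma with Benjamini-Hochberg adjustment, for these results, given as the dnHIF1a response minus the WT response on the log2 scale. The type I collagen probe sets read -1.27 and -1.06 for col1a1a sets 1 and 2, and -1.36 and -1.63 for col1a2 sets 1 and 2. Of the matrix genes, postnb read -2.60, sparc -1.10, col5a2a -1.02 and col6a3 -0.78, and of the enzymes and chaperones mmp2 -1.51, mmp14a -0.97, mmp14b -0.94 and fkbp10b -0.78. Of the marker genes, krt15 (skin and epithelium) read -1.76, anxa1a (skin and epithelium) -1.09, sost (bone) -0.94, vim (epicardium and fibroblast) -0.86, grna (macrophage) 0.86 and desma (cardiomyocyte) 0.56. grna rose by 0.79 in WT and 1.65 in dnHIF1a hearts, while desma fell by 0.37 in WT (limma, adjusted p = 0.00678) and read 0.18 in dnHIF1a hearts (adjusted p = 0.207). With the red blood cell marker mean as a covariate 15 of these 18 differences were no longer called, and krt15 (-1.91, adjusted p = 0.00617), mmp2 (-1.35, 0.0197) and anxa1a (-0.91, 0.0336) were. Among those lost were grna (0.0987), vim (0.117), desma (0.203), col6a3 (0.238), sost (0.262) and fkbp10b (0.296). Over all probe sets that fit left 24 differences called, against 347 without the covariate, so the loss is not particular to these genes. The calls of col6a3, sost and desma were each lost without any 1 of 8 arrays, with adjusted p up to 0.0908, 0.0774 and 0.0815.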

How the results depend on the processing

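The rise of the 4 type I collagen probe sets in WT hearts was called under every alternative but the epicardium and fibroblast covariate, and that in dnHIF1a hearts under every one but that and, for col1a1a set 1, treat. No collagen value changed direction under any alternative run. Over 466 collagen values from alternatives, 53 lost a call and 4 gained one. The 3 arrays per group and the dim probe sets limit what small differences can be called.

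Treat at 1.5-fold left 201, 70, 4, 126 and 79 probe sets called for the WT response, the dnHIF1a response, their difference, and the unamputated and amputated genotype differences. Its adjusted p was 0.0536 for the dnHIF1a response of col1a1a set 1 (1.15). For the difference it was 0.480 (-1.27), 1 (-1.06), 0.562 (-1.36) and 0.288 (-1.63), for unamputated hearts 0.282 (0.97), 1 (0.51), 0.373 (1.01) and 1 (0.92), and for amputated hearts 1 for both set 2 values (-0.55 and -0.71).

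With only the groups compared, 2338 probe sets were called for the WT response, col1a1a set 2 was lost in unamputated hearts (0.51, adjusted p = 0.0591) and col1a2 set 1 was gained in amputated ones (-0.35, 0.0384). The fit with a replicate block lost col1a1a set 2 in unamputated (0.51, 0.0767) and amputated hearts (-0.55, 0.0561) and no other collagen call; the sample numbers do not pair the arrays. The mean over a gene's probe sets gave calls in amputated hearts (col1a1a -0.43, 0.0388; col1a2 -0.53, 0.0304).

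With the erythrocyte covariate 660 probe sets were called for the WT response, 24 for the difference and 973 in amputated hearts. It gave differences of -1.12, -0.77, -1.08 and -1.33, an unamputated value of 0.40 for col1a1a set 2 and amputated values of -0.37 and -0.52 for the set 2 probe sets, none called. It turned 3 values that were not called, the differences of ccn2a (-0.18) and p4ha1b (-0.00092) and the unamputated value of fn1a (-0.12). The epicardium and fibroblast covariate, chosen after seeing the data, left 2, 6, 206 and 1174 calls for the responses, their difference and unamputated hearts. Its values not called were 1.44, 2.06, 2.05 and 2.01 in WT, 0.49, 1.21, 0.94 and 0.84 in dnHIF1a, -0.95, -0.84, -1.11 and -1.17 for the difference, 0.38 in unamputated and -0.46 in amputated hearts for col1a1a set 2.

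Leaving out 1 array at a time gave 909 to 1774 calls for the dnHIF1a response, 149 to 590 for the difference and 1138 to 2317 in amputated hearts. col1a1a set 2 ranged from -1.16 to -0.88 in the difference, from 0.36 to 0.61 in unamputated and from -0.65 to -0.37 in amputated hearts, where set 1 ranged from -0.40 to -0.21 and col1a2 set 2 from -0.83 to -0.55. Values near 0 that were not called turned, and ranged from -0.10 to 0.18 for the difference of ccn2a, from -0.048 to 0.37 for that of serpinh1b and from -0.037 to 0.34 for fn1a in unamputated hearts. The causes of these changes were not tested.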
